A study of Mus musculus with 16 samples.

Results

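The genes described here encode the nuclear subunits of oxidative phosphorylation, the 5 protein complexes of the inner mitochondrial membrane that carry electrons to oxygen and make ATP. They were chosen by symbol alone: Ndufa, Ndufb, Ndufc, Ndufs or Ndufv followed by a number, Sdha to Sdhd, and names that begin with Uqcr, Cox4 to Cox8 or Atp5. This gave 80 of the 18820 genes with a value, 33 in complex I, 4 in complex II, 7 in complex III, 19 in complex IV and 17 in complex V. Cox7a2l is counted among the complex IV genes by its symbol, but its product joins complexes III and IV into supercomplexes and is not a constant subunit. Cox7c, Ndufa13, Uqcrc2 and Ndufs5-ps match the symbols, but their probe sets carry several gene names, so they were not analysed here.

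Complexes I and II feed electrons from NADH and succinate to coenzyme Q, complex III passes them to cytochrome c, complex IV reduces oxygen, and complex V, the ATP synthase, uses the resulting proton gradient. Most subunits are encoded in the nucleus, and a small core is encoded by mitochondrial DNA, for which this array table gave no gene. In liver the chain takes up the electrons from fatty acid oxidation, which supplies most of the organ's energy during a fast.

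Liver RNA from 16 samples was hybridised to whole-transcript arrays, which read each gene by a set of short probes. All samples came from male mice aged 14 to 16 weeks, on a C57Bl/6J background, housed singly on chow. The 4 groups of 4 arrays were vanin-1 knockout (KO) mice fasted for 24 h, wild type (WT) mice fasted for 24 h, fed KO mice and fed WT mice. Vanin-1 is a membrane-bound pantetheinase, which releases pantothenate and cysteamine from pantetheine, and the labels call the KO mice vanin-1 null and name no tissue-specific driver. Levels are log2 intensities after RMA, groups are given as mean ± SD with n = 4, and a gene is called where limma's adjusted p over all 18820 genes was below 0.05.

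Several measurements bear on every result below. Vnn1 lay between 3.67 and 4.26 in fasted KO livers, between 9.93 and 11.47 in fasted WT livers, between 3.80 and 4.06 in fed KO livers and between 6.71 and 10.34 in fed WT livers, so every array fitted its labelled genotype. All 7 measured hepatocyte markers lay above the highest array median, and none of the 7 muscle or 3 testis markers did. Of the brown and white fat markers 1 of 6 lay above it, and of the exocrine pancreas markers 1 of 4. All 6 Kupffer cell, 5 stellate cell and 4 endothelial markers lay above it. On fasting, the stellate cell genes Col3a1 and Lrat and the red blood cell gene Alas2 fell in both genotypes, Alas2 by 0.80 in KO livers and 0.82 in WT livers, and the Kupffer cell gene Adgre1 fell and the hepatocyte gene Tat rose in WT livers. Summed red blood cell markers lay between 9.13 and 9.69 in fasted KO livers, 9.27 and 9.54 in fasted WT livers, 10.07 and 10.29 in fed KO livers, and 10.07 and 10.29 in fed WT livers (log2). The part of these cells in the fasting results was not tested. Fasted WT 4 carried the pancreatic enzymes Ctrb1 at 10.12 and Cpa1 at 9.88, where the other arrays read at most 4.44 and 4.69. Because these are pieces of whole liver, fewer cells of a type and less RNA per cell cannot be told apart. Precision is limited by the 4 arrays of each group. Genes of this kind have many processed pseudogenes, and whether a probe set also reads such a copy was not analysed here.

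The promoters below belong to the 3 genes called on fasting in KO livers, Cox7a2l, Ndufs7 and Cox6b2, and to Sdhb, the iron-sulfur subunit of complex II, which holds 2 kinds of motif for respiratory chain regulators and was called in no comparison. Each runs from 250 bases before to 50 bases after the transcription start on the gene's strand (RefSeq, GRCm38.p6). Capitals mark matches on either strand to GCATGCGC (NRF1), CCGGAAG (ETS family, which includes GABP), AAGATGGCG (YY1) and TCAAGGTCA (the estrogen-related receptors), and these letters do not overlap within the promoters shown. The windows are chr17:83514284-83514583 on the minus strand for Cox7a2l, chr10:80249199-80249498 on the plus strand for Ndufs7, chr7:4753045-4753344 on the minus strand for Cox6b2 and chr4:140961021-140961320 on the plus strand for Sdhb.
Cox7a2l: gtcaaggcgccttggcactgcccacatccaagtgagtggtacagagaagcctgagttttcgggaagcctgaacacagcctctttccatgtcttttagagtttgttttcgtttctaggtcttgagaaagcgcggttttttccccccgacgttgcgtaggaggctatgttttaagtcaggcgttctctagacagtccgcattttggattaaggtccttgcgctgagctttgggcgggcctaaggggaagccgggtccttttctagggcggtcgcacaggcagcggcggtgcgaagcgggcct
Ndufs7: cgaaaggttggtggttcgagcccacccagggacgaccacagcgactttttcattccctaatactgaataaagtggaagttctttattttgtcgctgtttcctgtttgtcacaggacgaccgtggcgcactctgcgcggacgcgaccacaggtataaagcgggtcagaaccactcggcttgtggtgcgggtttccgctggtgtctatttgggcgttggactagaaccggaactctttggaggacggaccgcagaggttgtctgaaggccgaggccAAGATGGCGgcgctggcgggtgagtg
Cox6b2: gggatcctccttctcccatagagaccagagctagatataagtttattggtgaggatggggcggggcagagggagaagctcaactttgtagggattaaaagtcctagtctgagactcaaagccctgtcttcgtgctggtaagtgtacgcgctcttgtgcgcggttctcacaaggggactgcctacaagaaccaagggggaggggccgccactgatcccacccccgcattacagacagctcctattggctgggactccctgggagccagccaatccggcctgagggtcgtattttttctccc
Sdhb: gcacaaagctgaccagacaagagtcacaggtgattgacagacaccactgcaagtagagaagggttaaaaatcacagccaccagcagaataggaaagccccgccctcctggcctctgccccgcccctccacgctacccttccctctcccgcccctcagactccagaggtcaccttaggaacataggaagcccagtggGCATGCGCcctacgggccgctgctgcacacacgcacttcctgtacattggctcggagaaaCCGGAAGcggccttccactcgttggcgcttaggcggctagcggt

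Ndufs7 held the YY1 letters near the end of its window, Sdhb held the NRF1 and ETS letters, and the windows of Cox7a2l and Cox6b2 held none of the 4 motifs. RefSeq windows were at hand for 66 of the 80 genes, 71 windows in all. Of these 71 windows, 14.1% held the NRF1 letters, against 2.71% of all 32851 windows in the same table. The ETS letters stood in 23.9% of these windows, against 8.86% of all, the YY1 letters in 9.86%, against 1.40%, and those of the estrogen-related receptors in 2.82%, against 0.423%. At least 1 motif stood in 29 windows (40.8%), against 12.5% of all windows. These are matches of letters, not measured binding.

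Signal was high for most of the genes. Of the 80, 73 had a mean above the highest array median (5.29), and 67 lay in the upper quartile of all gene means (above 7.99). The 7 genes below that median were Cox4i2, Cox6a2, Cox6b2, Cox7b2, Cox8b, Cox8c and Ndufa4l2, with means between 2.64 and 5.23. All 7 are second copies of a complex IV gene, most of them known from muscle, lung or testis, and signal at such levels stands little above background. Their broadly expressed counterparts Cox4i1, Cox6a1, Cox6b1, Cox7b, Cox8a and Ndufa4 all had means above the upper quartile. Cox7a1, the heart and muscle form, lay between 5.85 and 7.34 over the 16 arrays and was called in no comparison.

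The mean over the 80 genes was 9.83 ± 0.02 in fasted KO livers, 9.81 ± 0.05 in fasted WT livers, 9.77 ± 0.12 in fed KO livers and 9.81 ± 0.04 in fed WT livers. The group means thus lay within the spread between arrays. In the fed KO group, which had the widest spread, the mean of fed KO 4 was 9.59 where the other 3 lay between 9.82 and 9.84. The plot of complex means shows the same array at the bottom of its group in each of the 5 panels.

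**Figure D1:**
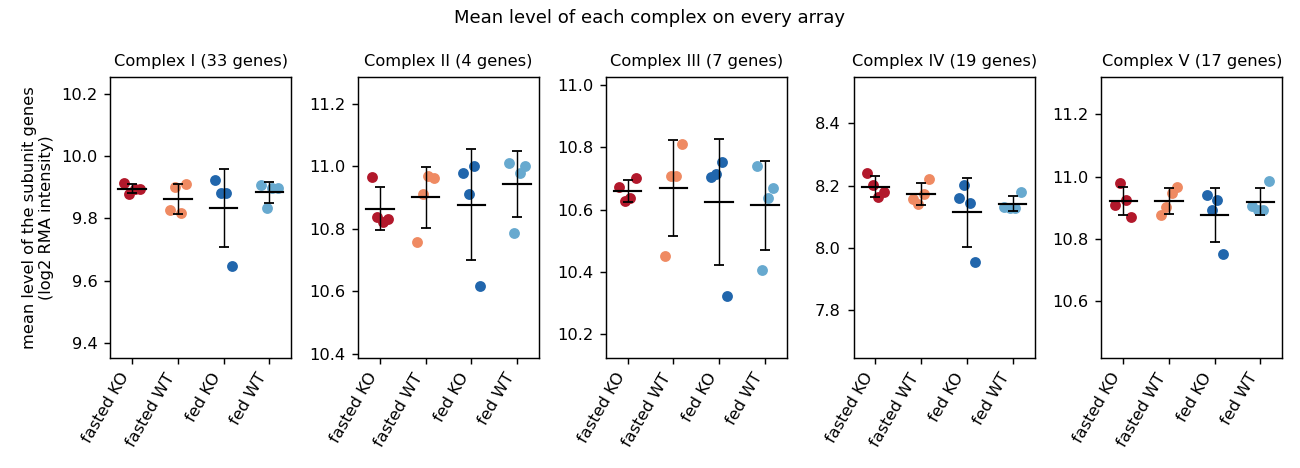
Mean log2 level of the genes of each complex on every array, with the group mean and SD (n = 4); the axes differ between panels. The fed KO group is the widest in each panel, and its lowest array, fed KO 4, lies at 9.65 for complex I and 10.32 for complex III.

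Fed KO 4 was the lowest of its group in 64 of the 80 genes (80%), where it was the lowest in 31.0% of all 18820 genes and in 38.2% of the genes in the upper quartile of level. Its median difference from the other fed KO arrays was -0.27 over complex I, -0.38 over complex II, -0.41 over complex III, -0.27 over complex IV and -0.17 over complex V, and -0.01 over all genes. Complex III shows it most plainly. Uqcr10, a small accessory subunit, read 9.84, 9.78, 9.78 and 9.14 on fed KO arrays 1 to 4, and Uqcrh, the hinge protein, read 11.21, 11.28, 11.21 and 10.74. The same array carried the acute phase genes Saa2 at 13.34, Saa3 at 11.42 and Lcn2 at 12.30. On the other fed KO arrays Saa2 reached at most 12.06, Saa3 8.41 and Lcn2 7.97, and the part of these in the low subunit levels was not tested.

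A weaker form of this was seen on an array of each WT group. Fasted WT 1 was the lowest of its group in 43 of the 80 genes (53.75%), against 25.3% of all genes, and the highest in 22 (27.5%), against 29.3% of all genes. Fed WT 2 was the lowest in 44 (55.0%), against 23.2% of all genes, and the highest in 17 (21.25%), against 29.4% of all genes. Fasted WT 1 read Saa2 at 6.80 and Lcn2 at 7.78, and fed WT 2 read Saa2 at 10.94 and Lcn2 at 9.47. The main counts and several gene values that rest on fed KO livers are also given without fed KO 4.

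**Figure D2:**
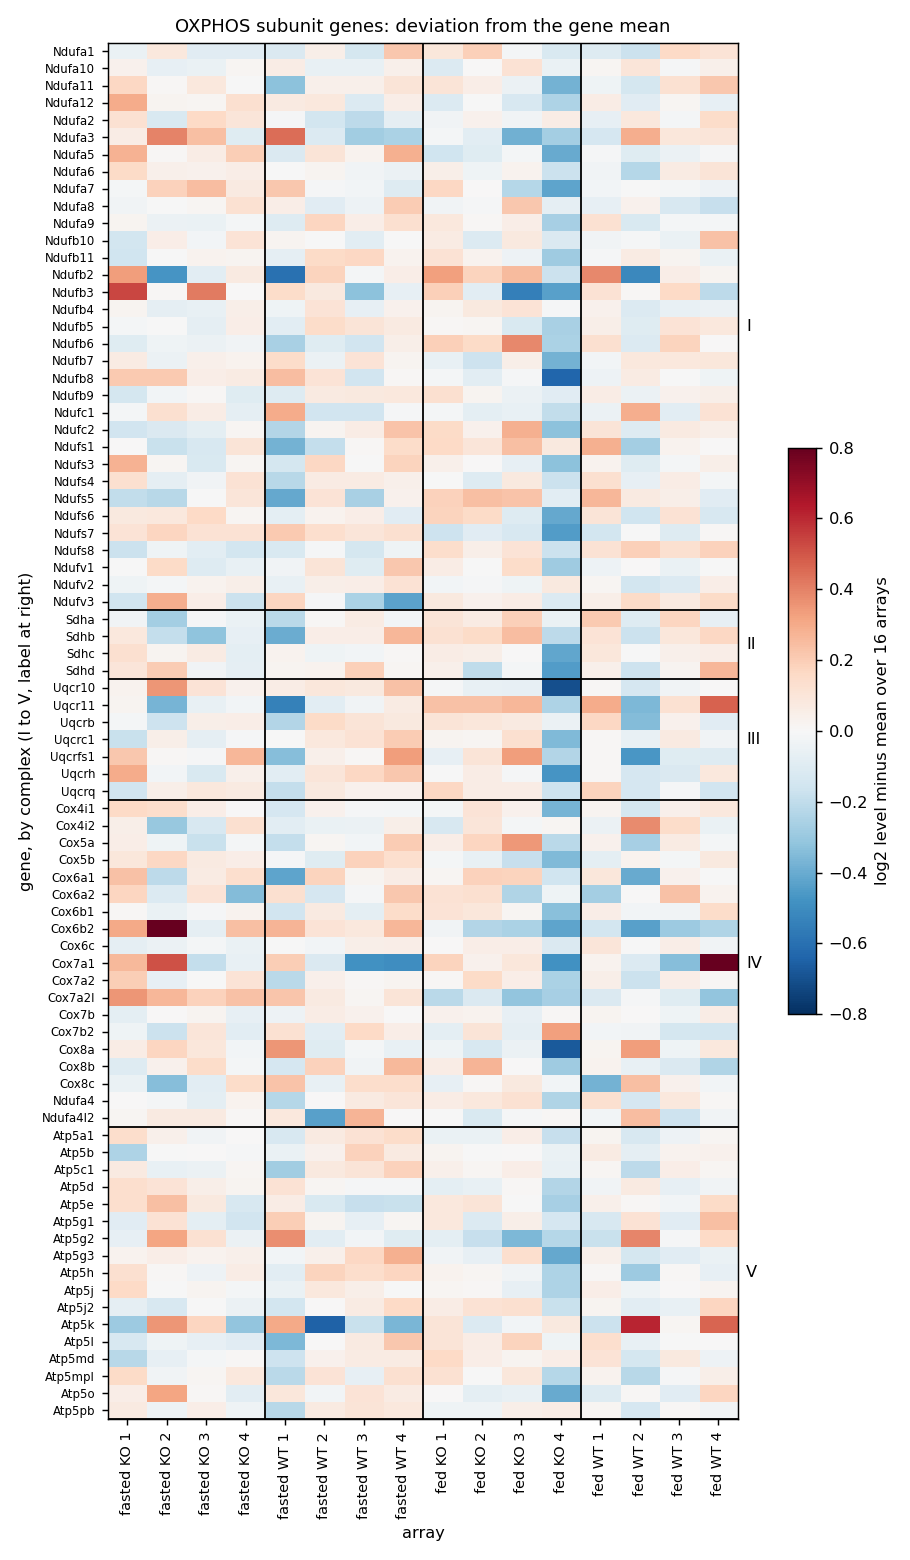
Log2 level of each of the 80 genes on the 16 arrays, as the difference from the gene's mean over all arrays; colours end at 0.8 in either direction, black lines part the groups and the complexes. Most rows are pale, and the column of fed KO 4 is blue in most genes of every complex.

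In the livers of vanin-1 KO mice 3 of the 80 genes rose on fasting and none fell: Cox7a2l by 0.49, Cox6b2 by 0.56 and Ndufs7 by 0.34 on the log2 scale. That is 3.75% of the genes, against 9.42% of all genes called in either direction, 4.53% called higher and 4.89% called lower. Of the 73 members at or above the highest array median 2.74% were called, against 15.6% of all genes at that level. The median difference was 0.02 over the 80 genes and 0.02 over all genes, and without fed KO 4 it was -0.01 over the 80 genes. In 72 of the 80 genes the 95% interval of the difference lay within 1.5-fold either way. In the same comparison 2 of 5 stellate cell markers and 1 of 2 measured red blood cell markers fell.

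Cox7a2l, the supercomplex factor, read 8.74, 8.66, 8.57 and 8.62 in fasted KO livers, against 8.17, 8.27, 8.07 and 8.12 in fed KO livers. All 4 fasted arrays lay above all 4 fed arrays. The difference was 0.49 ± 0.08 (SE, 1.40-fold), with an adjusted p of 0.000709 in limma, and it was called under each of the 33 alternatives run. A second probe set of the gene read 7.20, 7.44, 7.24 and 7.59 in fasted KO livers, against 7.13, 7.32, 6.98 and 7.02 in fed KO livers, so that its groups overlapped. Its difference was 0.26 ± 0.12 with an adjusted p of 0.271 in a fit of every probe set. Where on the genome each of the Cox7a2l probe sets lies was not analysed here. By probe set number, the first falls between those of Cox8c and Atp5mpl, genes of chromosome 12. The number of the second follows that of Ndufv2, a gene of chromosome 17, where Cox7a2l itself lies. Whether the first, called probe set reads another locus was not tested. Mice of the C57BL/6 line are known to carry an allele of Cox7a2l that encodes a shortened protein, which an array of RNA does not measure.

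Ndufs7, a core iron-sulfur subunit next to the quinone site of complex I, read 11.54, 11.60, 11.55 and 11.55 in fasted KO livers, against 11.27, 11.34, 11.31 and 10.98 in fed KO livers. The fasted arrays lay above the fed ones without overlap, and fed KO 4 was the lowest of all. The difference was 0.34 ± 0.08 (SE; adjusted p = 0.0101). Without fed KO 4 it was 0.26 with an adjusted p of 0.0254, and leaving out the 3 arrays with names ending in 2 (fasted KO 1, fed WT 2 and fed KO 4; the ending is not explained) the adjusted p was 0.0547.

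Cox6b2, the testis form of a complex IV subunit that faces the intermembrane space, read 5.08, 5.61, 4.71 and 5.02 in fasted KO livers, against 4.74, 4.54, 4.52 and 4.36 in fed KO livers. The groups overlapped by a single array on each side, and all but 1 of these values lie under the array medians. The difference was 0.56 ± 0.14 (SE; adjusted p = 0.0172), and without fed KO 4 it was 0.50 with an adjusted p of 0.0549. Cox6b1, the broadly expressed form, was not called.

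Counting these 3, 14 of the 80 genes (17.5%) had an unadjusted p below 0.05, against 22.1% of all genes. The largest difference in complex I was that of Ndufb3, an accessory subunit, at 0.46 ± 0.16 (adjusted p = 0.0890), and Ndufa5, another accessory subunit, had the smallest adjusted p among the genes not called, 0.0595, with a difference of 0.30. Without fed KO 4 these were 0.39 for Ndufb3 (adjusted p = 0.213) and 0.23 for Ndufa5 (adjusted p = 0.172). Ndufb3 read 7.82, 7.29, 7.70 and 7.29 in fasted KO livers, against 7.47, 7.20, 6.74 and 6.84 in fed KO livers, so that the groups overlapped. Fasted and fed arrays did not overlap in 11 genes that were higher when fasted, nor in Atp5l and Atp5md of complex V, which were lower (8.89% and 8.07% of all genes, 17% together). The nearest fasted and fed KO arrays read 9.693 and 9.696 for Atp5l, and 11.548 and 11.560 for Atp5md. In most other probe sets of Atp5l and in the others of Atp5md the groups overlapped. Cox5b and Ndufa12 had adjusted p-values of 0.0772 and 0.0785, with differences of 0.25 and 0.24. The differences without fed KO 4 were 0.18 (adjusted p = 0.212) and 0.20 (adjusted p = 0.192). Ndufb6, an accessory subunit of complex I, differed by -0.17 (adjusted p = 0.411), and by -0.29 without fed KO 4 (adjusted p = 0.0628). With both fasted WT 4 and fed KO 4 left out, Ndufb6 was called lower (adjusted p = 0.0488).

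Apart from Ndufs7, none of the core genes described next was called in KO livers. Ndufs1, which carries iron-sulfur clusters, differed by -0.19, and Ndufv1, which binds NADH and flavin, by 0.02. For Sdha, the flavoprotein of complex II, the difference was -0.17, and for Sdhb it was -0.20, the lowest of that complex. Uqcrc1 differed by -0.01 and the Rieske protein Uqcrfs1 by 0.08, Cox4i1 by 0.15 and Cox5a by -0.13, and Atp5a1 by 0.10 and Atp5b by -0.06. Without fed KO 4 the sign turned in 12 of the 80 genes, among them Ndufv1 at -0.07 and Uqcrfs1 at -0.01. Cox4i1 was then at 0.05, Cox5a at -0.23, Uqcrc1 at -0.11, Atp5a1 at 0.06 and Sdhb at -0.30, and none of these was called. The lowest value of the 80 was that of Uqcr11, a small subunit of complex III, at -0.23 ± 0.17 (adjusted p = 0.477), and at -0.35 without fed KO 4 (adjusted p = 0.263).

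Of the 80 genes, 22 had several probe sets, 53 in all. Their differences between fasted and fed KO livers spread by a median of 0.06 within a gene and by at most 0.27, in Uqcrh. The kept Uqcrh probe set, with a mean level of 11.21, differed by 0.15 (adjusted p = 0.558 in the fit of every probe set). A second Uqcrh probe set, with a mean level of 5.91, differed by 0.42 (adjusted p = 0.0338), and read 6.07, 6.08, 6.09 and 6.09 in fasted KO livers, against 5.80, 5.63, 5.77 and 5.45 in fed KO livers, without overlap. The fit of every probe set was not repeated without fed KO 4.

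**Figure D3:**
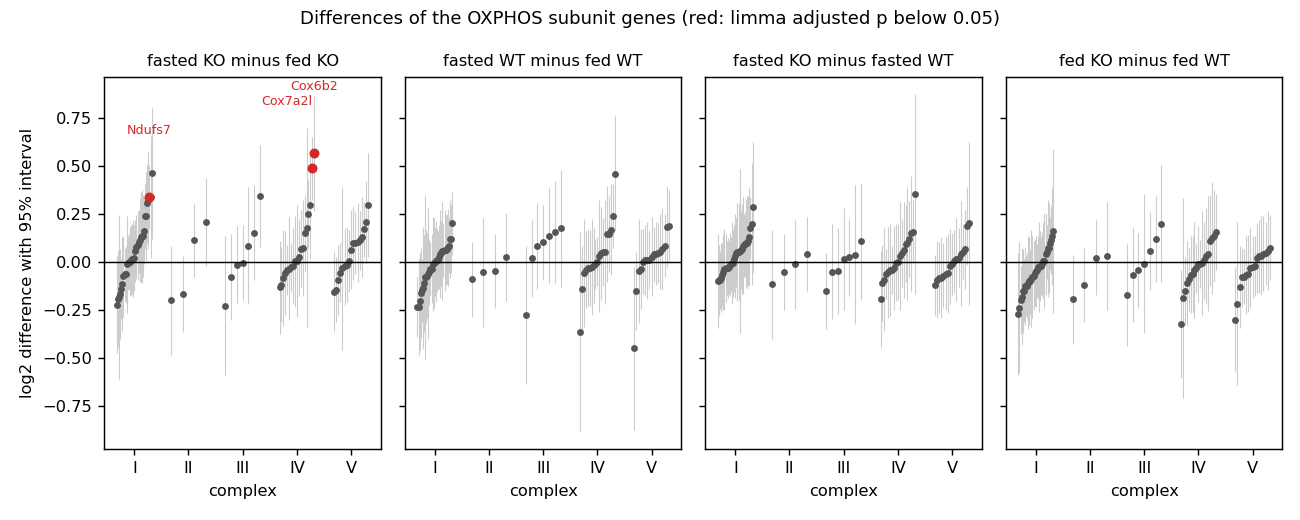
Log2 difference with its 95% interval for each of the 80 genes, sorted within each complex, in the comparisons of fasted with fed and of KO with WT livers; red marks an adjusted p below 0.05. Only fasted against fed KO livers has red points, Cox6b2, Cox7a2l and Ndufs7, and most intervals cross 0.

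None of the 80 genes was called in WT livers, where 7.61% of all genes were, 3.34% higher and 4.27% lower. Of all genes at or above the highest array median, 12.7% were called. An unadjusted p below 0.05 was seen in 5 of the 80 genes (6.25%), against 21.2% of all genes. The median difference was 0.01 over the 80 genes and 0.01 over all genes, and 76 of the 80 intervals lay within 1.5-fold. Fasted arrays lay wholly above the fed ones in 4 genes, Ndufs7, Uqcr10, Cox6b2 and Cox7a2l, and wholly below them in Ndufs8 (6.02% and 6.39% of all genes, 12.4% together).

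The genes nearest to the threshold in WT livers included the 3 above. Cox6b2 differed by 0.46 ± 0.14 (adjusted p = 0.0602), Cox7a2l by 0.24 ± 0.08 (adjusted p = 0.0756) and Ndufs7 by 0.20 ± 0.08 (adjusted p = 0.137). Cox7a2l read 8.61, 8.46, 8.41 and 8.49 in fasted WT livers, against 8.27, 8.37, 8.29 and 8.07 in fed WT livers, without overlap.

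Ndufs8, another core iron-sulfur subunit of complex I, lay on the other side of 0. It read 10.97, 11.08, 10.94 and 11.05 in fasted WT livers, against 11.20, 11.28, 11.22 and 11.27 in fed WT livers, and the groups did not overlap. The difference of -0.23 ± 0.07 had an adjusted p of 0.0651. In KO livers the same gene read 10.91, 11.05, 11.01 and 10.94 when fasted, against 11.22, 11.14, 11.20 and 10.91 when fed, a difference of -0.14 (adjusted p = 0.288) in which only fed KO 4 reached into the fasted range. It was -0.21 without that array (adjusted p = 0.0732).

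**Figure D4:**
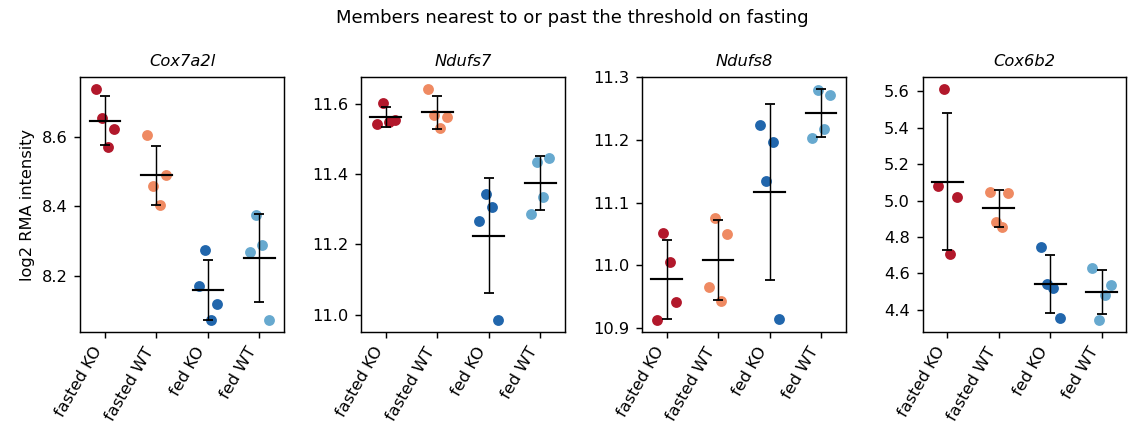
Log2 levels of Cox7a2l, Ndufs7, Ndufs8 and Cox6b2 on each array, with group mean and SD (n = 4); the axes differ between panels. Cox7a2l and Ndufs7 lie higher on all fasted arrays than on the fed arrays of the same genotype, and Ndufs8 has 1 fed KO array among the fasted values. Cox7a2l is drawn from its brighter probe set only.

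The highest value in WT livers was that of Cox6b2. The lowest was that of Atp5k, subunit e of the ATP synthase, at -0.45 ± 0.20 (adjusted p = 0.203), and the lowest of complex IV was that of Cox7a1 at -0.37 ± 0.25 (adjusted p = 0.434). Atp5k read 7.04, 6.09, 6.55 and 6.37 in fasted WT livers, against 6.56, 7.35, 6.75 and 7.20 in fed WT livers, so that the groups overlapped. Complex III had the largest median of the 5 complexes in WT livers, 0.10 over 7 genes, and complex II the smallest, -0.05 over 4 genes, with none of either called. The catalytic ATP synthase genes Atp5a1 and Atp5b differed by 0.08 and 0.04. Atp5g1, Atp5g2 and Atp5g3, which encode the same mature subunit c, differed by 0.01, -0.05 and 0.18, and none was called.

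Between KO and WT livers none of the 80 genes was called, either fasted (0.0159% of all genes called) or fed (0.00531%). Among fasted livers 1 gene (1.25%, against 5.49% of all genes) had an unadjusted p below 0.05: Ndufa2, an accessory subunit of complex I, at 0.18 ± 0.08 (adjusted p = 0.884). KO arrays lay wholly above WT arrays in Ndufa6, also an accessory subunit, and wholly below them in none of the 80 (1.65% and 1.5% of all genes, 3.15% together). The median difference was 0.00 and 77 of 80 intervals lay within 1.5-fold. The largest difference was that of Cox7a1, 0.35 ± 0.25, which read 6.61, 6.85, 6.15 and 6.28 in fasted KO livers, against 6.54, 6.23, 5.86 and 5.85 in fasted WT livers. Cox7a2l, on its brighter probe set, differed by 0.16 ± 0.08 (adjusted p = 0.894) and Uqcrc1, at the low end of complex III, by -0.15 ± 0.09.

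Among fed livers 3 genes had an unadjusted p below 0.05 (3.75%, against 5.76% of all genes). The median difference was -0.03, against -0.01 over all genes. Without fed KO 4 that median was 0.02. Cox8a, the broadly expressed form of a small complex IV subunit, differed by -0.32 ± 0.13 (adjusted p = 0.855). It read 11.02, 10.93, 11.01 and 10.39 in fed KO livers, against 11.08, 11.40, 11.03 and 11.15 in fed WT livers, so that all KO arrays were lower, with fed KO 4 the lowest and the nearest arrays at 11.02 and 11.03. The difference was -0.17 without fed KO 4 (adjusted p = 0.944). Of the 80 it was the 1 gene without overlap, where 1.28% of all genes were wholly higher and 1.84% wholly lower in fed KO livers (3.12% together). Atp5g2, a subunit c gene, differed by -0.30 ± 0.13 (adjusted p = 0.855) and Ndufb7, a complex I subunit, by -0.20. Without fed KO 4 these were -0.30 for Atp5g2 and -0.12 for Ndufb7, and the sign turned in 17 of the 80 genes. Ndufa3 had the lowest value of complex I, -0.27 ± 0.15 (adjusted p = 0.861), and was at -0.25 without fed KO 4. In 75 of the 80 genes the interval lay within 1.5-fold.

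The difference of the fasting responses, KO minus WT, was called in none of the 80 genes (0% of all genes called; 924 of 18820 had an unadjusted p below 0.05). Of the 80, 3 had an unadjusted p below 0.05 (3.75%, against 4.91% of all genes). Cox7a2l differed between the genotypes by 0.25 ± 0.11, Ndufb3 by 0.52 ± 0.23 and Ndufa3 by 0.47 ± 0.21, with an adjusted p of 0.948 for each. The value for Cox7a2l is that of its brighter probe set. For Ndufs7 the value was 0.14 ± 0.11 and for Cox6b2 0.11 ± 0.20. The median over the 80 genes was 0.03. Without fed KO 4 the median was -0.03, and the values were 0.24 for Cox7a2l, 0.45 for Ndufb3, 0.45 for Ndufa3, 0.06 for Ndufs7 and 0.04 for Cox6b2, with none of the 80 called. The calls in KO livers alone are therefore not shown to be particular to the KO genotype. In 72 of the 80 genes the interval of this difference lay within 1.5-fold.

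Lists of other genes of the pathway, chosen with earlier results of these data known, were read in the same fit. Of all genes at or above the highest array median, 15.6% were called on fasting in KO livers and 12.7% in WT livers. Of 14 enzymes listed for the TCA cycle, which supplies NADH and succinate, 6 rose and none fell on fasting in KO livers (42.9%, against 9.42% of all genes), and 4 rose and none fell in WT livers (28.6%, against 7.61%). Leaving out fed KO 4 left 5 that rose in KO livers. Each of these counts includes Pcx, pyruvate carboxylase, which feeds the cycle and is not a step of it. Dlst, a subunit of the oxoglutarate dehydrogenase complex, rose by 0.44 in KO livers (adjusted p = 0.00217) and by 0.37 in WT livers (adjusted p = 0.0106). Ogdh, its first subunit, rose by 0.34 in KO livers (adjusted p = 0.0138) and by 0.36 in WT livers (adjusted p = 0.0113). Pyruvate carboxylase, Pcx, rose by 0.43 in KO livers (adjusted p = 0.0205) and by 0.50 in WT livers (adjusted p = 0.0106). The call of Pcx in KO livers was lost without fasted KO 3 (adjusted p = 0.0559), fasted KO 4 (0.0669) or fed KO 1 (0.0628). Malate dehydrogenase Mdh2 rose by 0.40 in KO livers (adjusted p = 0.00167). In WT livers Mdh2 differed by 0.25 (adjusted p = 0.0361), a call lost without any 1 of fasted WT 1, 3 or 4 or fed WT 1, 3 or 4 (adjusted p between 0.0646 and 0.104).

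Of 19 electron carriers and coenzyme Q genes, 2 rose and 1 fell in KO livers (15.8%, against 9.42% of all genes), and 1 rose and 1 fell in WT livers (10.5%, against 7.61%). Among all genes at or above the highest array median the shares were 15.6% in KO and 12.7% in WT livers, so no excess is shown for this list. With fed KO 4 left out, 2 rose and 2 fell in KO livers. Etfdh, which passes electrons from fatty acid oxidation straight to coenzyme Q, read 11.92, 11.75, 11.84 and 11.85 in fasted KO livers, against 11.08, 11.25, 11.04 and 11.09 in fed KO livers. It rose by 0.73 ± 0.10 in KO livers (adjusted p = 0.000209) and by 0.60 ± 0.10 in WT livers (adjusted p = 0.00164), without overlap in either genotype. Prodh, which feeds electrons from proline, fell by 1.07 in KO livers (adjusted p = 0.00206). In WT livers Prodh differed by -0.06 (adjusted p = 0.907), and the difference of its responses was -1.02 ± 0.28 (adjusted p = 0.948). Among 17 mitochondrial carriers and uncoupling proteins, 3 rose and 1 fell in each genotype (23.5% in each, against 9.42% of all genes in KO and 7.61% in WT livers). Slc25a20, the carnitine carrier, rose by 0.83 in KO livers (adjusted p = 0.00241) and by 0.83 in WT livers (adjusted p = 0.00337). Slc25a47, a liver carrier, rose by 0.76 in KO livers (adjusted p = 0.00427) and by 0.79 in WT livers (adjusted p = 0.00460).

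Of 15 complex I assembly factors, none rose and 4 fell in KO livers (26.7%, against 9.42% of all genes called and 4.89% lower), and none rose and 1 fell in WT livers (6.67%, against 7.61% called and 4.27% lower). In KO livers 3 fell without fed KO 4. Ndufaf6 fell by 0.67 in KO livers (adjusted p = 0.000648). In WT livers it differed by -0.36 (adjusted p = 0.0478), a call that held under 11 of 33 alternatives and in 2 of the 16 fits that left out an array. Of 11 factors for complexes II and III, none was called in KO livers and 1 fell in WT livers, and of 22 for complex IV, 1 rose in KO livers, none without fed KO 4, and 1 fell in WT livers. Of 5 genes for complex V, only Atpif1 was called in KO or WT livers. Atpif1 encodes the inhibitor that stops the ATP synthase from running backwards, and read 9.03, 9.11, 9.02 and 8.98 in fasted KO livers, against 9.63, 9.65, 9.72 and 9.93 in fed KO livers. It fell by 0.70 ± 0.11 in KO livers (adjusted p = 0.00053) and by 0.61 ± 0.11 in WT livers (adjusted p = 0.00255), and all fasted arrays lay below all fed arrays in both genotypes.

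Of 20 regulators of mitochondrial gene expression, 1 rose in KO livers (5%, against 9.42% of all genes) and 2 rose in WT livers (10%, against 7.61%), and none fell. Among all genes at or above the highest array median, 15.6% were called in KO and 12.7% in WT livers. Ppargc1a, the coactivator PGC-1 alpha, read 8.64, 9.55, 8.02 and 9.06 in fasted KO livers, 9.46, 8.86, 9.84 and 9.79 in fasted WT livers, 8.49, 7.85, 7.85 and 7.73 in fed KO livers and 7.97, 8.12, 8.11 and 7.85 in fed WT livers. It rose by 1.48 ± 0.27 in WT livers (adjusted p = 0.00283), without overlap. In KO livers it differed by 0.84 ± 0.27 (adjusted p = 0.0594), with fasted KO 3 below fed KO 1, and it was called there without fasted WT 2 (adjusted p = 0.0422), fasted KO 3 (0.00885) or fed KO 1 (0.0348). The difference of the responses was -0.64 ± 0.38 (adjusted p = 0.948). Tfb2m, a factor of mitochondrial transcription, rose by 0.40 in KO livers (adjusted p = 0.0188) and by 0.40 in WT livers (adjusted p = 0.0243). The Tfb2m call was lost in KO livers without fasted KO 1 (adjusted p = 0.0720), fasted KO 4 (0.0532) or fed KO 3 (0.0718), and in WT livers without fasted WT 2 (0.0697), fasted WT 4 (0.0817), fed WT 2 (0.0714) or fed WT 4 (0.0702).

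Of the factors whose motifs were looked for in the promoters, Nrf1, Gabpa and Esrra were not called in either genotype. Values for Yy1 and for other ETS family members and estrogen-related receptors are not given here. Nrf1 differed by 0.03 in KO and 0.06 in WT livers, and the GABP subunit Gabpa by 0.00 in KO and -0.03 in WT livers. The estrogen-related receptor Esrra differed by 0.28 in KO livers (adjusted p = 0.261) and by 0.27 in WT livers (adjusted p = 0.281). Tfam, which packs mitochondrial DNA, differed by 0.30 in KO livers (adjusted p = 0.0840) and by 0.11 in WT livers. Of 71 mitochondrial ribosomal proteins, 2 rose and 2 fell in KO livers (5.63%, against 9.42% of all genes) and 1 rose and 2 fell in WT livers (4.23%, against 7.61%). No gene of these lists was called between KO and WT livers, fasted or fed.

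**Figure D5:**
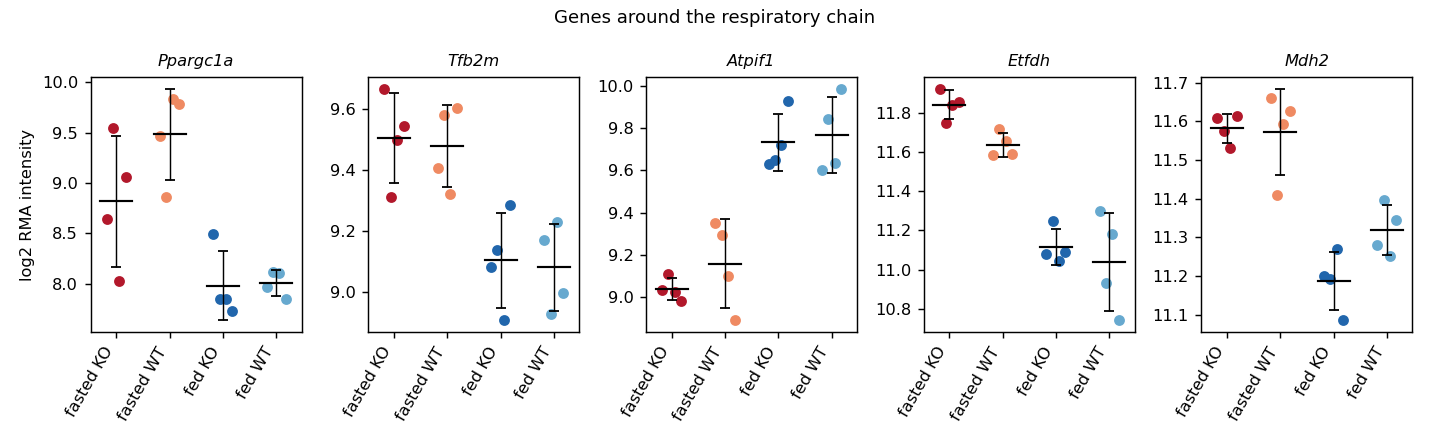
Log2 levels of Ppargc1a, Tfb2m, Atpif1, Etfdh and Mdh2 on each array, with group mean and SD (n = 4); the axes differ between panels. Etfdh, Tfb2m and Mdh2 lie higher and Atpif1 lies lower on all fasted arrays than on the fed arrays of the same genotype, and Ppargc1a overlaps in KO livers only.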

How the data were processed

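The deposited log2 values are RMA values, per the submitters' processing notes. RMA normally includes background correction, quantile normalisation and a summary over the probes of a set. For the program, its version and the probe set definitions, nothing is given in the sources used here. The deposited table held 35556 probe sets on 16 arrays, with array medians from 5.19 to 5.29. From the annotation table, 21218 probe sets with 1 gene symbol were used, the brightest for each gene, which gave 18820 genes and no filter on dim genes. All 80 members matched RefSeq by Entrez ID.

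A mean per group was fitted to all 16 arrays with limma 3.58.1 in R 4.3.3 (12 residual and 4.66 prior degrees of freedom). Tests were two-sided, with Benjamini-Hochberg adjustment across the 18820 genes. Tables and figures were made with Python 3.11.15, pandas 2.3.3 and matplotlib 3.10.9. The fit was tested on simulated data. Ranges given as 95% intervals come from the moderated fit.

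The members were taken by symbol alone, but this rule and the lists were set with earlier results of these data known. The rule for named genes covered called members, the highest and lowest of each complex and comparison, the catalytic core, tissue-specific paralogues and, from other lists, the called genes with the largest changes. The text prints some of these. Ndufa5, Ndufa6, Ndufb6, Ndufb7, Ndufa12, Cox5b, Uqcrh and some of the list genes were picked after their values were seen. The labels do not say that each array is a separate animal, so the p-values reflect only how these samples vary, which may be technical. The alternatives were 3 normalisations, 2 level filters, 2 ways of treating probe sets, 2 variance priors, array weights, the compared groups alone, replicate number or plate column as a block, omission of arrays, and stricter thresholds.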

Additional observations from a re-analysis of the deposited data

Results flagged for a closer look

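In each group of 4 arrays, the highest or lowest array was marked where its gap to the nearest other array took up more of the group's range than Dixon's 95% critical share. Chance marks about 1 in 20 groups, and 24 of 256 groups were marked, over the mean level of all 80 genes, of each complex and of most genes named with values. The 256 groups share arrays and genes, and some genes were picked by their values, so no excess over chance can be read from this count. Fed KO 4 accounted for 8 of the 24, always as the lowest array. Its mean over all 80 genes was 9.59, with the other fed KO arrays between 9.82 and 9.84. Its mean was 9.65 for complex I and 10.32 for complex III. Among single genes, fed KO 4 was marked for Sdhc at 9.98, Uqcr10 at 9.14, Uqcr11 at 10.42, Uqcrh at 10.74 and Cox8a at 10.39.

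In fed WT livers, array 1 was marked as lowest for Ndufb7 at 9.00, array 2 was marked as lowest for complex I at 9.83 and for complex II at 10.79, and array 4 as highest for complex IV at 8.18 and for complex V at 10.99. Fasted KO 1 was the highest for complex II at 10.97 and the lowest for Atp5b, the catalytic beta subunit of the ATP synthase, at 12.40. Fasted KO 2 was the lowest for Sdha at 11.39. Of the fasted WT arrays, array 3 was the lowest for Ndufa12 at 8.73 and the highest for Sdhd at 10.73, and array 1 was the lowest for Cox7a2 at 10.17 and for Atp5h at 11.12 and the highest for Atp5g2 at 11.55. Among the list genes, fasted WT 2 was the highest for Tfam at 8.18, fed KO 1 the highest for Ppargc1a at 8.49 and fed WT 4 the lowest for Slc25a47 at 11.28.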

How the results depend on the processing

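Between KO and WT livers, and for the difference of the fasting responses, 0 of the 80 genes were called under every alternative run, and no difference of a gene named with values turned its sign once called. In WT fasting, where the count is 0, it was 3 with arrays centred on their median, 2 with genes above the median level, and 1 with cyclic loess, a filter at the 30th percentile, a trended prior, the compared groups alone, or without fasted WT 4 and fed KO 4 (chosen after seeing the data). Leaving out single arrays gave 0 to 1: Cox6b2 was called without fasted KO 2 or fasted KO 3, and Ndufs8 without fed KO 4. In KO fasting, where the count is 3, it was 5 with genes above the median level. That filter drops Cox6b2, and the 5 were Cox7a2l, Ndufs7, Cox5b, Ndufa12 and Ndufa5. The count in KO fasting was 1 without the 3 arrays whose name ends in 2 and 1 at an adjusted p below 0.01. It was 2 to 4 without single arrays. Over the lists other than ribosomal proteins, 16 genes were called in WT and 20 in KO fasting. At 0.01 these were 7 and 10, and 10 in KO without the arrays whose name ends in 2. Over all genes, WT fasting called 629 higher and 803 lower, but 1014 and 542 with median centring, which shifted the median of all genes to 0.08. The total called there was 1432, and fits of the compared groups alone and without fasted WT 4 called 829 and 880. The replicate numbers did not pair the arrays (correlation of deviations between -0.22 and 0.21). With the number as a replicate block, 4 of the 80 genes were called in KO and 0 in WT fasting. The difference of the responses could not be fitted with the compared groups alone. Causes of these shifts were not tested.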
